A study of Homo sapiens with 9 samples.

Results

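A paclitaxel-resistant and a docetaxel-resistant derivative of MDA-MB-231, a human triple-negative breast cancer cell line, were compared across all genes measured on an Affymetrix human expression array. The comparison used 6 of the 9 arrays of the study, chosen by their titles: 3 of the docetaxel-resistant line and 3 of the paclitaxel-resistant line, each from a separate passage. Docetaxel-resistant cells grew in normal medium with 1 µM verapamil and 2 nM docetaxel. Paclitaxel-resistant cells grew in the same medium with 1 µM verapamil and 7 nM paclitaxel. Both thus had verapamil, which blocks calcium channels and also inhibits the drug pump P-glycoprotein. The other 3 arrays are of sensitive MDA-MB-231 cells in 1 µM verapamil with no taxane. They entered no test, and their values stand beside those of the resistant lines as a reference level. Each resistant group is 1 line, so line, drug and dose cannot be told apart, and p-values measure the spread between passages of a line. How the lines were selected, and whether either is a clone, is not given in the sources used here.

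Taxanes bind beta-tubulin within the microtubule and stabilize it, which holds dividing cells in mitosis. Cells that survive a taxane are known to do so by pumping the drug out, chiefly through P-glycoprotein, by changing the tubulins they make, or by tolerating the arrest. Paclitaxel and docetaxel share the taxane ring system. Docetaxel carries a tert-butoxycarbonyl group in place of the benzoyl group on the side chain nitrogen, and a free hydroxyl in place of an acetate on the ring. The doses differed (2 nM and 7 nM), so the values below are those of the 2 lines side by side and give no comparison of the compounds at a matched dose.

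The 6 arrays were alike in scale, with median deposited intensities from 37.5 to 43.9. Pearson's r of log2 values lay between 0.976 and 0.991 for arrays of the same line and between 0.966 and 0.9805 for arrays of different lines. Docetaxel passage 3 and paclitaxel passage 1 stood apart from the others of their lines, in the same direction. The main axis of variation within lines took 50.9% of that variance and put them at 0.611 and 0.523, against -0.423 to -0.189 for the other 4 arrays. Paclitaxel passage 1 also had the highest 3′ to 5′ difference of the actin control probe sets, 0.172 on the log2 scale, against -0.15 to -0.0705 in the other 5. Their part in the results was not tested beyond leaving arrays out. All 8 markers of MDA-MB-231 and all 6 general epithelial markers were measured and none was called. Vimentin and keratin 18 were abundant, while EPCAM was low in all 9 arrays, with a mean of 14.8 in the docetaxel line and 14.3 in the paclitaxel line. None of the 7 endothelial and 7 melanocytic markers was called. Over all genes 2.32% were called, by the rule given below. Marker lists this short can therefore hold no call without standing out.

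Intensities were analysed as log2(intensity + 16), so every difference below is paclitaxel minus docetaxel on that scale, given ± its standard error (SE). The offset understates differences that start from a low intensity. A gene is called where the adjusted p (limma, Benjamini-Hochberg over 11963 genes) was under 0.05. The lines differed in 278 genes, 2.32% of those tested. Of these, 132 (1.10%) were higher in the paclitaxel line and 146 (1.22%) were lower. Without normalization between arrays 188 genes were called and 31.9% of them were higher, against 47.5% in the main setting. At an unadjusted p under 0.05, 1768 genes differed. The arrays of the lines did not overlap in 2444 genes (20.4%), which include all 278 called. Most differences were small: the median over all genes was 0.018 and the 5th and 95th percentiles were -0.44 and 0.41. At least a 2-fold difference was seen in 82 called genes, 41 in each direction. At least a 4-fold difference was seen in 14, of which 4 were higher and 10 lower in the paclitaxel line. The higher mean of a called gene was above the median level of all genes in 263 of 278 (94.6%). With an offset of 1 in place of 16, 44 of the 278 remained called. Calls that held when any array was left out but ended at this offset include COL6A2, INHBB, APOBEC3B, PLAU and COL4A5 (adjusted p = 0.0628 to 0.0968). Of the 278 calls, 53 held when each of the 6 arrays was left out in turn, and a call that ended on leaving out an array is marked as such below.

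**Figure D1:**
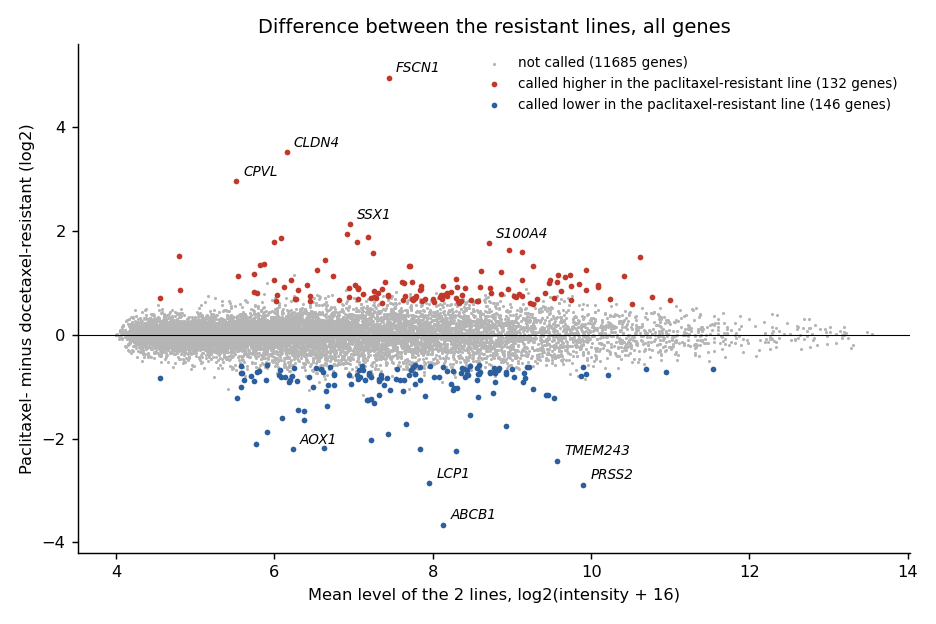
Difference between the lines (paclitaxel- minus docetaxel-resistant, log2, vertical) against the mean level of the 2 lines (log2(intensity + 16), horizontal), 1 point per gene. Red points are the 132 genes called higher and blue points the 146 called lower in the paclitaxel line; FSCN1 at 4.95 and ABCB1 at -3.66 lie farthest from 0 at this offset.

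On this scale the largest difference was in FSCN1, which encodes fascin, a protein that bundles actin filaments in cell protrusions. Its deposited intensity was 10.1, 21.4 and 16.6 in the docetaxel line and 848, 1070.0 and 911 in the paclitaxel line. The docetaxel arrays were at low intensity, and the paclitaxel arrays were just above the sensitive ones, at 843, 608 and 803. The difference was 4.95 ± 0.17 (adjusted p = 1.20e-06), and the further probe set of FSCN1 was also called, at 3.29 ± 0.17. CLDN4 encodes claudin 4, a tight junction protein. It read 2.05, 8.17 and 5.36 in the docetaxel line and 207, 232 and 209.7 in the paclitaxel line, and 201, 211 and 210.1 in sensitive cells. The docetaxel line was again at low intensity, and the ranges of the other groups overlapped (difference 3.52 ± 0.16, adjusted p = 4.83e-06). CPVL, a serine carboxypeptidase, read 0.620, 0 and 0.890 in the docetaxel line and 134, 85.01 and 104 in the paclitaxel line, a difference of 2.95 ± 0.13 (adjusted p = 4.83e-06). Sensitive cells had CPVL intensities of 182, 113 and 152. The docetaxel values of all 3 genes are so low that the size and order of these differences depend on the offset. With offsets of 1 and 64 the difference was 5.90 and 3.67 for FSCN1, 5.33 and 2.07 for CLDN4, and 6.36 and 1.45 for CPVL, each still called. All 3 genes lie on chromosome 7, and their calls held without any single array.

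S100A4, a calcium-binding protein linked to cell motility, was at 177, 271 and 226 in the docetaxel line and 816, 713 and 701 in the paclitaxel line. Sensitive cells were higher than either line, at 2519, 1701 and 1725, and the lines differed by 1.76 ± 0.14 (adjusted p = 0.000341). ADAM8, a membrane-bound metalloprotease, had the same order of groups: 50.4, 84.4 and 54.6 in the docetaxel line and 273, 279.9 and 209.8 in the paclitaxel line, and 403, 356 and 469 in sensitive cells (difference 1.88 ± 0.18, adjusted p = 0.000840). The further probe set of ADAM8 gave 1.10 ± 0.24 and was not called. MYLK, the kinase that phosphorylates myosin light chain, was at 59.5, 56.2 and 54.7 in the docetaxel line and 314, 241 and 141 in the paclitaxel line, and paclitaxel passage 3 was the lowest of its line (difference 1.79 ± 0.22, adjusted p = 0.00320). GUSB, the lysosomal enzyme beta-glucuronidase, was 1.60 ± 0.15 higher (adjusted p = 0.000675), with means of 317 and 952 against 551 in sensitive cells. Thus GUSB was below the sensitive level in the docetaxel line and above it in the paclitaxel line. GUSB has several near-identical pseudogene copies whose signal the array may share.

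ABCB1 was the most reduced gene of the paclitaxel line. It encodes P-glycoprotein, the pump that exports taxanes. Its intensity was 862, 851 and 1363 in the docetaxel line and 87.4, 53.1 and 48.4 in the paclitaxel line. Every docetaxel array lay far above every paclitaxel array, and both lines lay above the sensitive cells, at 6.24, 5.43 and 10.4. The difference between the lines was -3.66 ± 0.20 (95% confidence interval -4.11 to -3.21; adjusted p = 2.15e-05). LCP1 encodes plastin 2, an actin-bundling protein of leukocytes that many carcinoma lines also make. It was at 618, 724 and 665 in the docetaxel line and 121, 46.9 and 69.3 in the paclitaxel line, with sensitive cells at 24.03, 15.5 and 20.2 (difference -2.86 ± 0.21, adjusted p = 0.000216). LCP1 was 1 of 9 blood-cell markers measured and the only member called. The markers summed to 2346 to 2800 in the docetaxel arrays and 1216 to 1890 in the paclitaxel arrays. SRGN, another of these markers, also had a lower mean in the paclitaxel line (741 against 1332) but was not called (adjusted p = 0.147). PTPRC, which defines leukocytes, was low in both lines, with means of 9.90 and 7.80. PRSS2, a trypsinogen, read 3009, 3642 and 1673 in the docetaxel line and 356, 285 and 330.2 in the paclitaxel line, and the paclitaxel arrays were at the sensitive level of 301, 371 and 331 (difference -2.89 ± 0.25, adjusted p = 0.000544). TRBC1, a constant segment of the T-cell receptor beta locus within which the trypsinogen genes lie, was also lower, by -2.20 ± 0.18 (adjusted p = 0.000338). Its docetaxel arrays were at 445, 565 and 460.4 and its paclitaxel arrays at 73.8, 79.7 and 106. Both genes have near-identical copies, so the values may be shared among them.

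AOX1, an aldehyde oxidase that oxidizes many drugs, was at 124, 139 and 202 in the docetaxel line and 15.6, 21.3 and 18.9 in the paclitaxel line, and the paclitaxel line lay below the sensitive cells at 103, 31.5 and 60.8 (difference -2.21 ± 0.15, adjusted p = 0.000174). MXRA8, a cell adhesion protein of the matrix, was at the sensitive level in the docetaxel line (mean 300.4 against 323) and at 55.6 in the paclitaxel line (difference -2.04 ± 0.19, adjusted p = 0.000658). MAP3K7CL differed by -1.87 ± 0.15 (adjusted p = 0.000318). The remaining large decreases, of TMEM243, ABCB4, CROT, USP33 and DNAJB4, lie next to other called genes and are described with them. The plot of values in each array shows the 12 largest increases and decreases.

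**Figure D2:**
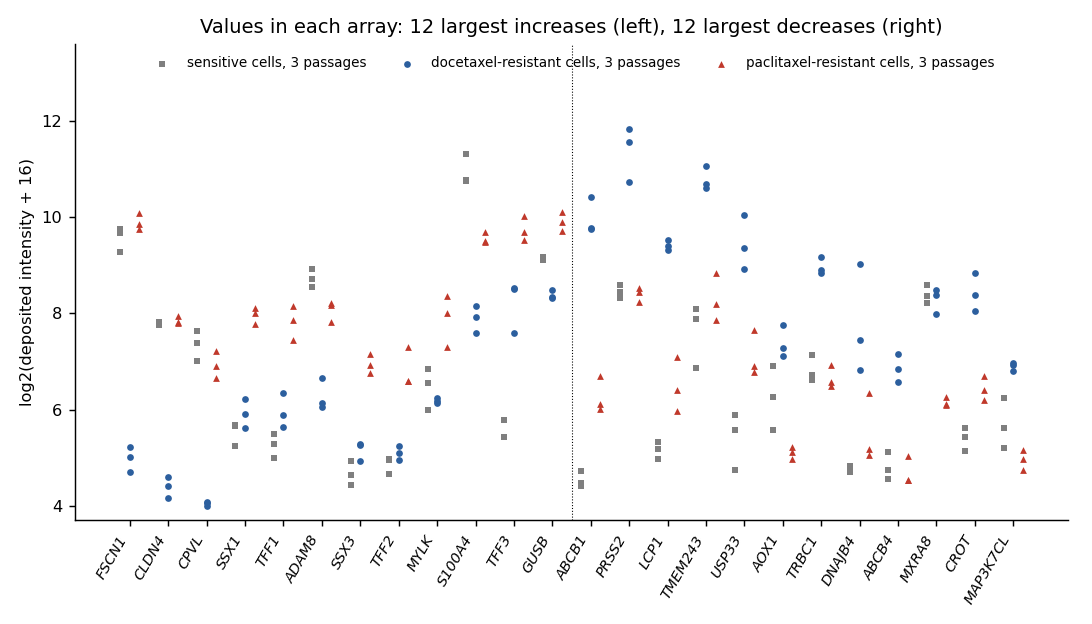
Values of the 24 genes with the largest differences in each of the 9 arrays (log2(deposited intensity + 16), vertical), before normalization between arrays; grey squares are sensitive, blue circles docetaxel-resistant and red triangles paclitaxel-resistant cells, 3 passages each. For FSCN1, CLDN4 and CPVL the red and grey points lie together above the blue, and for ABCB1 the blue lie highest, the red between and the grey lowest.

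On chromosome 7, 5 neighbouring genes were lower in the paclitaxel line, in the order TMEM243, TP53TG1, CROT, ABCB4 and ABCB1. TMEM243, a membrane protein, was at 1541, 1645 and 2139 in the docetaxel line and 444, 216 and 278 in the paclitaxel line (difference -2.43 ± 0.20, adjusted p = 0.000341). TP53TG1, a p53-induced noncoding RNA, differed by -1.31 ± 0.15 (adjusted p = 0.00251). CROT, a peroxisomal carnitine acyltransferase, was at 249.9, 319.6 and 443 in the docetaxel line and 88.3, 57.4 and 68.7 in the paclitaxel line (difference -1.91 ± 0.17, adjusted p = 0.000544). ABCB4 encodes a phospholipid transporter closely related to P-glycoprotein. It was at 127, 98.8 and 79.7 in the docetaxel line and 17.1, 7.10 and 7.28 in the paclitaxel line (difference -2.10 ± 0.22, adjusted p = 0.00125), and its paclitaxel level was no higher than that of sensitive cells, at 7.41, 18.6 and 10.9. For TMEM243, TP53TG1, CROT and ABCB1 the order of the means was docetaxel, paclitaxel, then sensitive. All 5 calls held without any single array. The differences were bounded on both sides by genes that were not called. Before TMEM243, DMTF1 differed by -0.94 ± 0.36 (adjusted p = 0.245) and GRM3 by 0.15 ± 0.15. After ABCB1, RUNDC3B differed by 0.05 ± 0.28 and SLC25A40 by 0.17 ± 0.13. DBF4, ADAM22, SRI and STEAP4, which follow, differed by 0.24, -0.18, 0.15 and -0.04. Of the 13 measured genes of this neighbourhood, 5 were called and 8 were not.

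The promoter windows of 2 of these 5 genes overlap, which is why the sequence is shown. RefSeq (GRCh38.p14) starts CROT on the plus strand and TP53TG1 on the minus strand, and their windows, each from 250 bases before to 50 after the start, share 271 bases. A similar pair, WDR3 and GDAP2, is found in another run of lower genes, on chromosome 1, described next, where the windows share 217 bases. ABCB1 has 2 windows, here numbered 1 and 2, and CLDN4, at low intensity in the docetaxel line, has 1. Capitals mark CCAAT, the CCAAT box, and GGGCGG, the GC box, on either strand, and no match overlapped another in these windows. Of 35116 windows of the same length, 34.6% held a CCAAT box and 45.0% a GC box. The windows are CROT at chr7:87345414-87345713 (plus strand), WDR3 at chr1:117929489-117929788 (plus), ABCB1 window 1 at chr7:87713246-87713545 (minus), ABCB1 window 2 at chr7:87600835-87601134 (minus) and CLDN4 at chr7:73830746-73831045 (plus).
CROT: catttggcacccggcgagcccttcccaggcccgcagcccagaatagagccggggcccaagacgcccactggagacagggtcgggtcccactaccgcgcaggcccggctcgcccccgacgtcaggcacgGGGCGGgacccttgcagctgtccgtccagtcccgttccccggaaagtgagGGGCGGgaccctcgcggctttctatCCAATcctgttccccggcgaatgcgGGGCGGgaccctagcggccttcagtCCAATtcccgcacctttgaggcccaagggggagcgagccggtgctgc
WDR3: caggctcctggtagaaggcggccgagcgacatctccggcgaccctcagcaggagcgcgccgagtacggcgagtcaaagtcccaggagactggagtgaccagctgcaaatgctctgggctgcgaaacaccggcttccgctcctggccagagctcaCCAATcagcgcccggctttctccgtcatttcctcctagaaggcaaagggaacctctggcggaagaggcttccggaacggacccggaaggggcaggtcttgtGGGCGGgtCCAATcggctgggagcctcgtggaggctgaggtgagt
ABCB1 window 1: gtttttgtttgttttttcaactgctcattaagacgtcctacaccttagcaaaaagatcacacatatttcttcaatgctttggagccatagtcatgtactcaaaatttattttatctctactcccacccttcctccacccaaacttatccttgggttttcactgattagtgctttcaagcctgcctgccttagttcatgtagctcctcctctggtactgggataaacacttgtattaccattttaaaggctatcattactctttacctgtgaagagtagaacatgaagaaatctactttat
ABCB1 window 2: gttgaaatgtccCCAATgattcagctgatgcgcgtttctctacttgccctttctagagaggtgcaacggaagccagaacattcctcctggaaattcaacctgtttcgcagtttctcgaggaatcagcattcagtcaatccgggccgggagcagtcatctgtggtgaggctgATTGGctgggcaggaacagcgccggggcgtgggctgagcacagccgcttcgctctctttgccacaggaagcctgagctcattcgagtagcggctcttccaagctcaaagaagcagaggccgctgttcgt
CLDN4: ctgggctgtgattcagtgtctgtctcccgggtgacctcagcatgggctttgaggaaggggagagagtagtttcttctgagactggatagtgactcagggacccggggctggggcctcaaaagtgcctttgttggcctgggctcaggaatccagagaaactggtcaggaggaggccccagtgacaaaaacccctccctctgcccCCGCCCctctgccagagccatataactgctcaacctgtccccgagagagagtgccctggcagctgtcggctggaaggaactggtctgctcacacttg
The CROT window held 2 CCAAT boxes and 3 GC boxes, and the WDR3 window held 2 CCAAT boxes and 1 GC box. Within the shared bases these are the letters of TP53TG1 and GDAP2 as well, read on the other strand. ABCB1 window 1 held neither motif, and window 2 held a CCAAT box 238 bases before the start and, on the opposite strand, another 79 bases before it. The CLDN4 window held 1 GC box. These matches describe the letters only.

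On chromosome 1, TENT5C, GDAP2, WDR3 and WARS2 lie next to each other among the measured genes and were all lower in the paclitaxel line. WDR3, a protein of ribosome assembly, was at 742, 812 and 1180.0 in the docetaxel line and 308, 241 and 179 in the paclitaxel line, and sensitive cells were at 74.8, 23.3 and 30.6 (difference -1.76 ± 0.19, adjusted p = 0.00170). WARS2, the mitochondrial tryptophanyl-tRNA synthetase, was at 294, 356 and 451 in the docetaxel line and 102, 71.1 and 103 in the paclitaxel line (difference -1.72 ± 0.16, adjusted p = 0.000658). TENT5C, a poly(A) polymerase, was at 123, 145 and 145 in the docetaxel line and 31.2, 27.1 and 32.1 in the paclitaxel line (difference -1.65 ± 0.12, adjusted p = 0.000216). WDR3 and WARS2 were, like ABCB1, intermediate in the paclitaxel line, whereas the paclitaxel arrays of TENT5C lay below all 3 sensitive arrays. GDAP2 differed by -0.65 ± 0.14 (adjusted p = 0.0452), a call that ended when any 1 of the 6 arrays was left out (adjusted p up to 0.174). The genes on either side, MAN1A2 at 0.10 ± 0.16 and HAO2 at -0.09 ± 0.14, were not called.

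Another group on chromosome 1 held USP33, FUBP1 and DNAJB4. USP33, a deubiquitinating enzyme, was at 473, 638 and 1033 in the docetaxel line and 186, 104 and 94.4 in the paclitaxel line, with sensitive cells at 42.9, 10.99 and 31.7 (difference -2.24 ± 0.25, adjusted p = 0.00205). Both further probe sets of USP33 were called too, at -2.29 ± 0.22 and -0.94 ± 0.14. FUBP1, a regulator of MYC transcription, differed by -1.09 ± 0.23 (adjusted p = 0.0455), and its call ended on leaving out any array but paclitaxel passage 1 (adjusted p up to 0.116). DNAJB4, a heat shock co-chaperone, was at 97.8, 158 and 506 in the docetaxel line and 65.4, 20.3 and 17.4 in the paclitaxel line. Docetaxel passage 3 alone was several times higher than the others of its line, and the difference of -2.19 ± 0.47 (adjusted p = 0.0465) was not called without docetaxel passage 2 or 3 or paclitaxel passage 2 or 3 (adjusted p up to 0.193). Docetaxel passage 3 also carried the highest value of USP33 and of ABCB1. The genes on either side, ZZZ3 at -0.22 ± 0.31 and GIPC2 at 0.12 ± 0.14, were not called. Farther out, ST6GALNAC5 (-0.61 ± 0.13, adjusted p = 0.0455) and IFI44, given with the interferon-induced genes, were called lower between uncalled genes. The ST6GALNAC5 call ended without any 1 of the 6 arrays.

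On chromosome 21, ABCG1 and the trefoil factor genes TFF3, TFF2 and TFF1 formed a run that was higher in the paclitaxel line. Trefoil factors are small secreted peptides of mucosal surfaces, and TFF1 is a textbook oestrogen-induced gene of luminal breast cancer. TFF1 was at 43.4, 65.2 and 34.1 in the docetaxel line and 270.3, 159 and 215 in the paclitaxel line (difference 1.94 ± 0.20, adjusted p = 0.00125), and TFF2 at 18.5, 22.1 and 15.1 in the docetaxel line and 142, 81.1 and 80.9 in the paclitaxel line (difference 1.79 ± 0.17, adjusted p = 0.000675). TFF3 was at 349, 352 and 176 in the docetaxel line and 1031, 717 and 811 in the paclitaxel line. Sensitive cells had TFF3 at 26.99, 39.3 and 39.4, so both lines were above them. The TFF3 difference of 1.63 ± 0.28 (adjusted p = 0.0205) was not called without docetaxel passage 2 or any 1 paclitaxel passage (adjusted p up to 0.0831). ABCG1, a sterol exporter, was at 40.00, 50.7 and 46.7 in the docetaxel line and 81.97, 72.6 and 79.1 in the paclitaxel line against 1.96, 1.48 and 4.01 in sensitive cells (difference 0.69 ± 0.13, adjusted p = 0.0252). Leaving out any array but paclitaxel passage 1 ended the ABCG1 call (adjusted p up to 0.0967). TFF1 was the only 1 of 11 luminal breast markers called. The oestrogen receptor gene ESR1 differed by 0.12 ± 0.16, and the 11 markers summed to 2931 to 3406 in the docetaxel and 2869 to 3447 in the paclitaxel arrays.

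**Figure D3:**
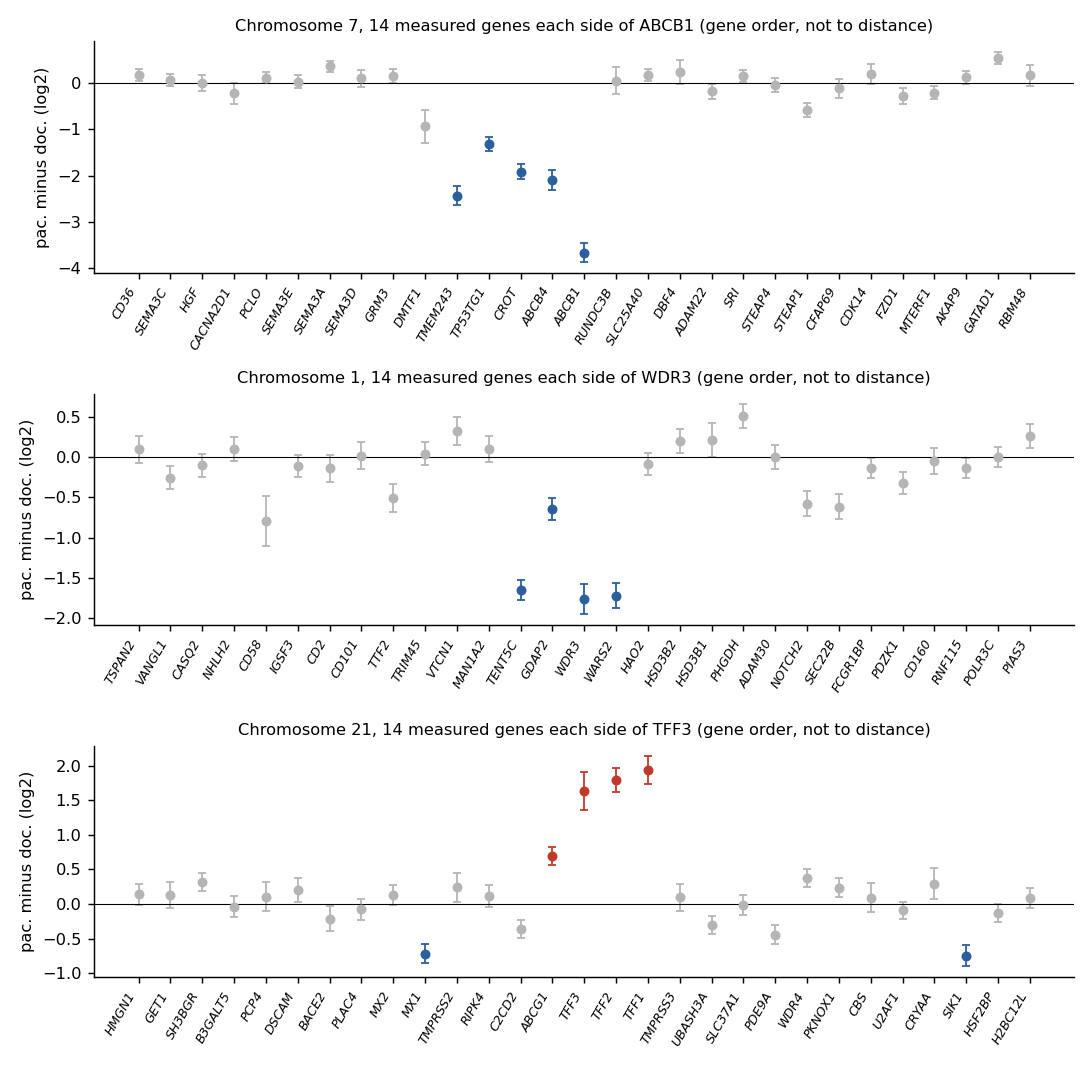
Difference between the lines (log2, vertical; error bars, SE of the limma fit on 3 and 3 arrays) for the measured genes around ABCB1 on chromosome 7, WDR3 on chromosome 1 and TFF3 on chromosome 21, in gene order. Blue points were called lower and red points higher in the paclitaxel line; the 5 blue points from TMEM243 to ABCB1 stand between grey, uncalled neighbours.

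Runs of 3 genes were also seen on chromosomes 20 and 22. The salivary-type cystatins CST4, CST1 and CST2, which inhibit cysteine proteases, were higher by 1.49 ± 0.25, 1.14 ± 0.19 and 1.33 ± 0.24 (adjusted p = 0.0175, 0.0186 and 0.0254). They are close paralogs whose probe sets may share signal. The calls of CST4 and CST1 ended without paclitaxel passage 2 or 3, and that of CST2 without docetaxel passage 2 or any 1 paclitaxel passage (adjusted p up to 0.105). On chromosome 22, GTPBP1, SUN2 and DNAL4 were higher by 0.77 ± 0.16, 1.01 ± 0.15 and 0.71 ± 0.15 (adjusted p = 0.0360, 0.0123 and 0.0438). SUN2, a nuclear envelope protein, lost its call without paclitaxel passage 2 or 3, and the other two without any 1 of the 6 arrays. Averaged over its probe sets GTPBP1 differed by 0.19 (adjusted p = 0.509). In all, 6 runs of 3 or more genes called the same way were found, and 42 of the 278 called genes had a neighbour called the same way. The number of runs fell to between 1 and 3 when an array was left out.

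Other genes linked to taxane resistance were mostly not called, as were most genes measured (2.32% called). In the list of drug transporters ABCB1 and ABCB4 were lower, ABCG1 was higher and 15 of 18 measured members were not called. ABCC1, which encodes the pump MRP1, differed by -0.02 ± 0.14 with a 95% confidence interval of -0.34 to 0.30. ABCG2, the breast cancer resistance protein, differed by 0.11 ± 0.15 (interval -0.23 to 0.45). None of 17 tubulins and none of 34 microtubule-associated or microtubule-regulating genes was called, though 2 and 5 of them passed an unadjusted p under 0.05. Over all genes 1768 of 11963 passed that unadjusted cut. The median difference was 0.11 for tubulins (13 above 0 and 4 below) and 0.060 for the microtubule-associated list (20 and 14). It was 0.018 for all genes. With 2.32% of all genes called, lists of this size can hold no call without standing out from other genes. TUBB3, the beta-tubulin isotype most often linked to taxane resistance, was at 2245, 2504 and 2245 in the docetaxel line and 3086, 2798 and 2909 in the paclitaxel line (difference 0.35 ± 0.12, interval 0.07 to 0.63, adjusted p = 0.210). TUBB2A and TUBB6 differed by 0.01 ± 0.14 and -0.0035 ± 0.13, MAPT, which encodes tau, by 0.27 ± 0.15, and STMN1, which encodes stathmin, by -0.0044 ± 0.12. The interval of TUBB2A reached from -0.31 to 0.33. Among 29 apoptosis regulators 1 was called, the death receptor TNFRSF10B, at 0.79 ± 0.14 (adjusted p = 0.0210; lost without any 1 of the 6 arrays). BCL2, BCL2L1 and MCL1, which restrain apoptosis, differed by 0.05 ± 0.14, -0.01 ± 0.14 and -0.09 ± 0.17. None of 21 p53 targets and cell cycle inhibitors was called, CDKN1A included (0.46 ± 0.18, adjusted p = 0.244), and 3 passed an unadjusted p under 0.05.

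In all, 34 lists of pathway, structural and cancer genes were followed, with 1034 measured members. Of these 71 were called (6.87%, against 2.32% of all genes), and 31 of the 71 held when each array was left out. The lists were drawn up with earlier results of these data known, so this share is no evidence about them. The median difference of a list lay between -0.18 and 0.14, against 0.018 for all genes.

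By number of called members, targets of ERK signalling were the largest of the 34 lists. These genes are switched on by the MAP kinase ERK, and many of their products feed back to restrain it. Of 31 measured, 6 were higher and 1 lower in the paclitaxel line (22.6% called, against 2.32% of all genes). The median was 0.029, against 0.018 for all genes. A larger share was called among the genes around ABCB1 (38.5%). Of the 7 calls among ERK targets, 3 held when each array was left out. The phosphatase genes DUSP6 and DUSP4 were higher. DUSP6 was at 462, 592 and 672 in the docetaxel line and 1343, 1184 and 1178 in the paclitaxel line (difference 1.16 ± 0.13, adjusted p = 0.00251) and DUSP4 at 437, 568 and 493 in the docetaxel line and 972, 1043 and 993 in the paclitaxel line (difference 1.05 ± 0.13, adjusted p = 0.00408). All further probe sets of both were called the same way. DUSP5, a nuclear ERK phosphatase, went the other way, at 998, 1108 and 999 in the docetaxel line and 438, 409 and 461 in the paclitaxel line (difference -1.16 ± 0.13, adjusted p = 0.00250). For DUSP4 the paclitaxel line lay between the docetaxel line and the sensitive cells (mean 1292), and for DUSP5 the docetaxel line was near the sensitive cells (mean 927). The inhibitors SPRY1, SPRY4 and SPRED2 and the transcription factor ETV4 were higher by 0.88 ± 0.13, 0.81 ± 0.14, 0.65 ± 0.14 and 0.75 ± 0.15. The SPRY1 call ended without paclitaxel passage 2 or 3. That of SPRY4 ended without any array but paclitaxel passage 2, that of SPRED2 without any but paclitaxel passage 1, and that of ETV4 without any 1 of the 6 (adjusted p up to 0.174). The mean of the probe sets of SPRED2 was 0.31 and not called (adjusted p = 0.232).

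In the Notch and Wnt list 4 of 38 were higher and none lower (10.5% called, against 2.32% of all genes). The median of the list was -0.028. HES1, a Notch target, was at 214, 242 and 202 in the docetaxel line and 410.0, 379 and 334 in the paclitaxel line (difference 0.83 ± 0.14, adjusted p = 0.0205). JAG1, a Notch ligand gene, was at 427, 506 and 523 in the docetaxel line and 748, 641 and 746 in the paclitaxel line (difference 0.60 ± 0.12, adjusted p = 0.0397). The Wnt co-receptor gene LRP5 and the secreted antagonist gene DKK3 were higher by 0.74 ± 0.15 and 0.76 ± 0.14. None of these 4 calls held throughout: HES1 was lost without docetaxel passage 2 or 3 or paclitaxel passage 2 or 3, and JAG1, LRP5 and DKK3 without any 1 of the 6 arrays (adjusted p up to 0.167). Probe sets named _x_at or _s_at may be shared between transcripts. The probe set of HES1 without that mark was at low intensity and gave -0.16 (adjusted p = 0.785), and that of DKK3 gave 0.067 (adjusted p = 0.905). The mean of DKK3's probe sets was 0.31 and not called (adjusted p = 0.258). In the TGF-beta list 2 of 39 were called (5.13%, against 2.32% of all genes). INHBB, the activin beta-B subunit, was 1.22 ± 0.17 higher (adjusted p = 0.00669), and TGFBR2, the type II TGF-beta receptor, was -0.83 ± 0.13 (adjusted p = 0.0126), not called without docetaxel passage 2 or paclitaxel passage 2 or 3. Of 45 receptor kinases and growth factors, 4.44% were called, against 2.32% of all genes. These were GDF15 and HBEGF, which were lower, at -1.02 ± 0.16 and -0.65 ± 0.14 (adjusted p = 0.0140 and 0.0492). GDF15, a stress-induced cytokine, lost its call without docetaxel passage 1 or 2 or paclitaxel passage 2 or 3, and HBEGF, an EGF receptor ligand, without any 1 of the 6 arrays. Without probe sets marked as shared GDF15 was at 0.021 (adjusted p = 0.981), and averaged over all its probe sets it was -0.50 and not called (adjusted p = 0.0793).

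Epithelial and mesenchymal genes moved in both directions. In the epithelial list CLDN4 and ITGB4 were higher, KRT15 and CLDN1 lower, and 30 of 34 were not called. Thus 11.8% of this list was called, against 2.32% of all genes, and its median was -0.0023. KRT15, a basal keratin, was at 45.8, 56.1 and 79.9 in the docetaxel line and 21.7, 23.9 and 23.2 in the paclitaxel line (difference -0.89 ± 0.15, adjusted p = 0.0175) and CLDN1, another claudin, at 49.5, 42.3 and 48.4 in the docetaxel line and 21.5, 18.8 and 21.8 in the paclitaxel line (difference -0.73 ± 0.13, adjusted p = 0.0217). CLDN1 thus differed in the opposite direction to CLDN4. ITGB4, the hemidesmosome integrin, was 1.01 ± 0.18 higher and its further probe sets were not called (0.18 without probe sets marked as shared). The KRT15 call ended without docetaxel passage 2 or paclitaxel passage 2 or 3, that of CLDN1 without docetaxel passage 1 or 2 or paclitaxel passage 2 or 3, and that of ITGB4 without any array but paclitaxel passage 1. CDH1, which encodes E-cadherin, differed by 0.0032 ± 0.25. In the mesenchymal list FN1, S100A4 and LOXL2 were higher, SNAI2, SPARC and TAGLN lower, and 28 of 34 were not called (median 0.0076). SPARC, a matrix glycoprotein, was at 215, 275 and 263 in the docetaxel line and 112, 93.9 and 96.3 in the paclitaxel line, with sensitive cells far lower at 16.2, 10.2 and 20.3 (difference -1.07 ± 0.12, adjusted p = 0.00250). LOXL2, which crosslinks collagen, was at 679, 902 and 798 in the docetaxel line and 1319, 1664 and 1458 in the paclitaxel line (difference 0.92 ± 0.15, adjusted p = 0.0152). FN1, fibronectin, differed by 1.00 ± 0.16, the transcription factor SNAI2 by -0.82 ± 0.17 and the smooth muscle protein TAGLN by -0.95 ± 0.16. LOXL2 lost its call without docetaxel passage 1 or paclitaxel passage 2 or 3, FN1 without docetaxel passage 2 or paclitaxel passage 3, SNAI2 without any array but docetaxel passage 1, and TAGLN without any but docetaxel passage 3 (adjusted p up to 0.185). Without probe sets marked as shared FN1 was at -0.0091 (adjusted p = 0.994).

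Matrix and protease genes likewise split. PLAU, the urokinase activator of plasminogen, was at 945, 1187 and 1026 in the docetaxel line and 405, 446 and 481 in the paclitaxel line, and the docetaxel line was closer to the sensitive mean of 1336 (difference -1.16 ± 0.15, adjusted p = 0.00509). TIMP3, an inhibitor of metalloproteases, was at 18.8, 22.7 and 18.2 in the docetaxel line and 80.6, 46.6 and 64.3 in the paclitaxel line, far under the sensitive mean of 475 in both lines (difference 1.18 ± 0.15, adjusted p = 0.00509; 0.73 averaged over its probe sets, still called). With ADAM8 higher and PRSS2 lower, 2 of 40 proteases and inhibitors were higher and 2 lower (median -0.020), and all 4 calls held without any single array. Of 41 collagens and matrix proteins, COL6A1, COL6A2 and AGRN were higher and COL4A5, FBN1 and MATN3 lower (median 0.024). COL6A2, a collagen VI chain, was at 123, 143 and 97.6 in the docetaxel line and 314, 287 and 301 in the paclitaxel line (difference 1.33 ± 0.17, adjusted p = 0.00504), and COL6A1, its partner, differed by 0.85 ± 0.16. Without probe sets marked as shared neither was called, at 0.52 (adjusted p = 0.116) for COL6A2 and 0.30 (adjusted p = 0.505) for COL6A1, and AGRN was at 0.18 (adjusted p = 0.721). COL4A5, a basement membrane collagen, was at 112, 123 and 126 in the docetaxel line and 40.6, 16.3 and 40.5 in the paclitaxel line (difference -1.46 ± 0.20, adjusted p = 0.00792). FBN1, which encodes fibrillin, was at 178, 202 and 284 in the docetaxel line and 101, 83.99 and 48.2 in the paclitaxel line (difference -1.25 ± 0.22, adjusted p = 0.0205). FBN1 was the only 1 of 11 fibroblast markers called, and these summed to 563 to 720.0 in the docetaxel and 422 to 521 in the paclitaxel arrays. COL6A1, AGRN and MATN3 lost their calls without any array but paclitaxel passage 1, and FBN1 without docetaxel passage 2 or 3 or paclitaxel passage 2 or 3. In the actin list FSCN1, MYLK and CAPG were higher and LCP1 lower of 33 (median 0.0041). The bundling proteins fascin and plastin 2 thus differed in opposite directions. CAPG, a filament capping protein, differed by 0.68 ± 0.13 and was not called without any 1 of the 6 arrays. None of 37 integrin, laminin and adhesion genes was called, and 6 passed an unadjusted p under 0.05. Their median was 0.12 (28 above 0 and 9 below), against 0.018 for all genes. Over all genes 2.32% were called and 1768 of 11963 passed the unadjusted cut.

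Among secreted mucosal proteins MUC5B, a gel-forming mucin, was at 23.7, 20.5 and 18.1 in the docetaxel line and 62.5, 71.1 and 90.6 in the paclitaxel line and near 0 in sensitive cells (difference 1.36 ± 0.17, adjusted p = 0.00349; 0.89 averaged over its probe sets, still called). With the trefoil factors, 4 of 21 of this list were higher and none lower (median 0.096). This is 19% called, against 2.32% of all genes. Cancer-testis antigens, normally made only in the germ line, differed in both directions. SSX1 was at 33.2, 58.7 and 44.1 in the docetaxel line and 202, 239.8 and 260.4 in the paclitaxel line (difference 2.13 ± 0.19, adjusted p = 0.000544) and SSX3 at 22.8, 22.4 and 14.6 in the docetaxel line and 92.9, 107 and 127 in the paclitaxel line (difference 1.87 ± 0.18, adjusted p = 0.000675). The SSX genes are near-identical copies, and the further probe sets, 1 for SSX1 at 0.75 ± 0.19 and 2 for SSX3 at -0.02 ± 0.15 and -0.12 ± 0.17, were not called. MAGEC1 was at 241, 292 and 321 in the docetaxel line and 112, 114 and 115 in the paclitaxel line (difference -1.09 ± 0.13, adjusted p = 0.00317), with sensitive cells near 0. MAGEA1 was -0.98 ± 0.19 and MAGEB2 0.77 ± 0.14, so 3 of 25 antigens were higher and 2 lower (median 0.061). The MAGEA1 call ended without any array but paclitaxel passage 1, and that of MAGEB2 without docetaxel passage 1 or 2 or paclitaxel passage 2 or 3. Among lysosomal genes GUSB was higher and CTSC, the protease cathepsin C, lower, at 502, 567 and 675 in the docetaxel line and 265, 218 and 201 in the paclitaxel line (difference -1.21 ± 0.13, adjusted p = 0.00199).

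Glycolysis and hypoxia genes had 3 higher and 1 lower of 36 (11.1% called, against 2.32% of all genes). Their median, 0.14, was the highest of all lists. ANGPTL4, a hypoxia- and lipid-induced secreted protein, was at 73.4, 72.5 and 77.3 in the docetaxel line and 274, 194 and 247 in the paclitaxel line (difference 1.57 ± 0.13, adjusted p = 0.000419), and the docetaxel arrays were close to the sensitive mean of 69.3. ALDOC, an aldolase, was at 853, 871 and 634 in the docetaxel line and 1501, 1449 and 1468 in the paclitaxel line, and both lines were above the sensitive mean of 306 (difference 0.97 ± 0.17, adjusted p = 0.0229). The enolase gene ENO2 was 0.80 ± 0.15 higher. CA12, a carbonic anhydrase that is induced by hypoxia, went the other way, at -0.88 ± 0.13 (adjusted p = 0.0116). The ALDOC call ended without docetaxel passage 2 or any 1 paclitaxel passage, that of ENO2 without any 1 of the 6 arrays, and that of CA12 without docetaxel passage 1 or 2. AOX1 was the only 1 of 42 redox and drug-metabolism genes called (2.38%, near the 2.32% of all genes).

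Small numbers were called elsewhere, and none of these calls held when each array was left out in turn. The amino acid stress gene ASNS was 1.01 ± 0.18 higher, 1 of 31 stress-response genes (lost without docetaxel passage 1 or 2 or paclitaxel passage 1 or 2). IL11 and ICAM1 were higher, by 0.67 ± 0.13 and 0.68 ± 0.14, among 35 NF-kB and cytokine genes. The interferon-induced genes MX1 and IFI44 were lower, at -0.72 ± 0.14 and -1.61 ± 0.33, among 42. IFI44 had 57.5, 86.96 and 237 in the docetaxel line and 27.3, 18.2 and 23.3 in the paclitaxel line, so the docetaxel arrays all lay above the paclitaxel arrays, with passage 3 the highest, and the call ended without docetaxel passage 2 or any 1 paclitaxel passage. Its difference was -0.93 as the mean of its probe sets and -0.25 (adjusted p = 0.532) without probe sets marked as shared. HSPA2 and DNAJB4 were lower of 20 heat shock chaperones, HSPA2 by -0.67 ± 0.14. CDC20, the activator of the anaphase-promoting complex, was 0.68 ± 0.15 higher, 1 of 34 mitosis genes. GINS2, a subunit of the replicative helicase, was -0.82 ± 0.18, 1 of 34 replication genes. IL11, ICAM1, MX1, HSPA2, CDC20 and GINS2 were each lost without any 1 of the 6 arrays. DNAJB4 is as described above. No member was called among 25 antigen presentation, 25 lipid synthesis, 38 oxidative phosphorylation, 28 ribosomal protein, 19 adhesion receptor and 21 DNA methylation genes, of which 1, 6, 5, 1, 3 and 3 passed an unadjusted p under 0.05. Over all genes 2.32% were called and 1768 of 11963 passed the unadjusted cut. Lists of this size can therefore hold no call without standing out.

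Calls were unevenly spread over chromosomes. On chromosome 15, 26 of 360 measured genes were called (7.22%, against 2.32% overall), 25 of them lower in the paclitaxel line. The median difference there was -0.15, and 28.9% of genes had a difference above 0, against 53.5% over all placed genes. Taking the median over the chromosome of each array's deviation from the mean of the 6, the docetaxel arrays stood at 0.102, 0.0673 and 0.07 and the paclitaxel arrays at -0.0578, -0.101 and -0.108. In 4 equal parts of the gene order, 4, 10, 5 and 6 genes were lower in turn. They included SQOR, a mitochondrial sulfide oxidase (-1.22 ± 0.14, adjusted p = 0.00304), FBN1, CA12, PPIB, a cyclophilin of the secretory pathway (-0.66 ± 0.12), and DUT, which clears dUTP (-0.66 ± 0.13). Of the 26 calls only SQOR held when each array was left out, and the number of lower genes then ranged from 1 (without docetaxel passage 2) to 17 (without paclitaxel passage 1).

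Chromosome 22 showed the reverse. All 21 called of 312 measured (6.73%) were higher in the paclitaxel line, 77.9% of genes had a difference above 0, and the median was 0.19. The docetaxel arrays stood at -0.0671, -0.082 and -0.194 and the paclitaxel arrays at 0.0554, 0.16 and 0.111. In 4 equal parts of the gene order the median was 0.069, 0.15, 0.28 and 0.34 in turn. Called genes included TIMP3, GGT5, which cleaves glutathione conjugates (1.43 ± 0.17, adjusted p = 0.00304), GAS2L1, which links actin to microtubules (1.25 ± 0.15, adjusted p = 0.00286), and APOBEC3B, a cytidine deaminase (1.07 ± 0.15, adjusted p = 0.00684). These 4 held without any single array, and the number of higher genes ranged from 6 (without paclitaxel passage 2 or 3) to 15 (without paclitaxel passage 1).

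On chromosome 7, 28 of 540 genes were called (5.19%). The chromosome was divided at TMEM243, its first gene called lower in gene order, so calls before it are all higher by construction. Of the 233 measured genes before TMEM243, 15 were called, and the median difference was 0.12. They include FSCN1, CPVL, GUSB, CLDN4, LIMK1, a kinase that controls cofilin, and POR, the electron donor of cytochrome P450 enzymes. LIMK1 differed by 0.90 ± 0.16 and POR by 0.69 ± 0.13 (adjusted p = 0.0225 and 0.0305). The LIMK1 call ended without docetaxel passage 1 or 2 or paclitaxel passage 2 or 3, and that of POR without any 1 of the 6 arrays. Without probe sets marked as shared LIMK1 was at 0.043 (adjusted p = 0.972). From TMEM243 on, 10 of 307 were lower, 5 of them the run that ends with ABCB1, and ASNS, TES and MEST were higher. The median there was 0.036, also above that of all genes. The share called was nearer the 2.32% of all genes on chromosomes 8 (12 of 434, 2.76%) and 10 (13 of 451, 2.88%). On chromosome 8, 10 of the 12 were higher and lay in the first 2 of 4 equal parts of the gene order, and 69.1% of its 434 genes had a difference above 0. These 10 include DUSP4, LOXL2 and TNFRSF10B, and also EIF4EBP1, a repressor of translation (0.74 ± 0.16, adjusted p = 0.0452; lost without any array but paclitaxel passage 1). On chromosome 10, 12 were lower and 1, ADAM8, was higher. Larger shares were called on chromosomes 21 (6.57%, 6 higher and 3 lower), X (4.32%, 4 higher and 16 lower) and 14 (4.20%, 6 higher and 10 lower). The number of higher genes fell to between 4 (without docetaxel passage 2) and 15 (without docetaxel passage 3) on chromosome 7, and to between 1 and 4 on chromosome 8. Without normalization between arrays it was 10 and 2. The genes of these chromosomes other than those named earlier were singled out after their values were seen.

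**Figure D4:**
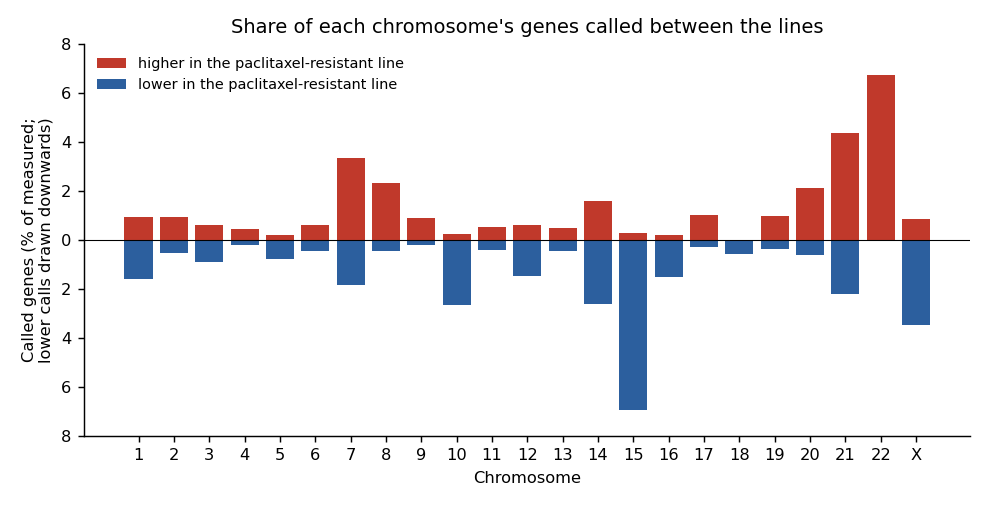
Called genes as a percentage of the measured genes of each chromosome (vertical), drawn upwards for genes higher and downwards for genes lower in the paclitaxel line. Chromosome 15 has the longest downward bar (25 of 360 genes) and chromosome 22 the longest upward bar (21 of 312) with no downward one.

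**Figure D5:**
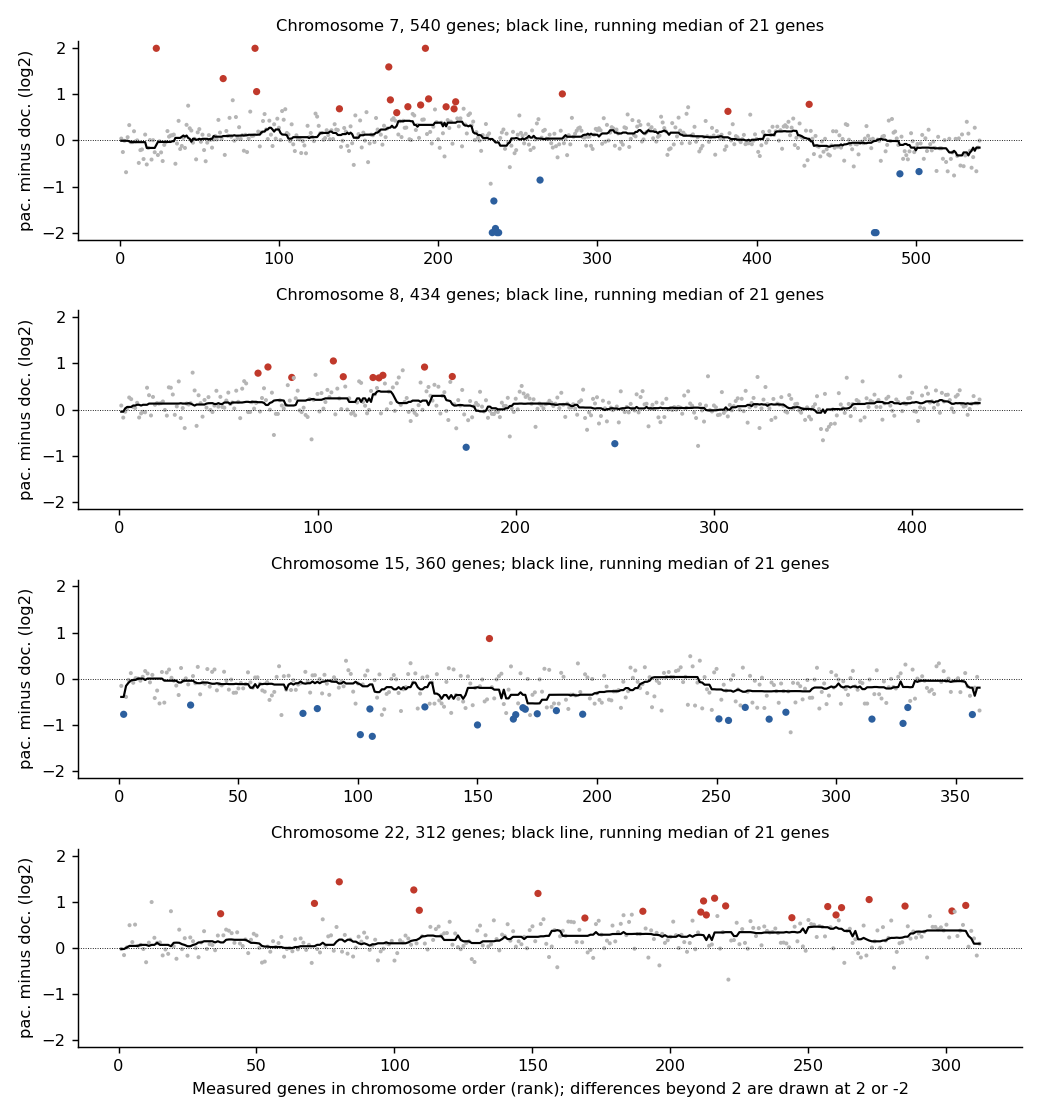
Difference between the lines (log2, vertical, drawn within 2 and -2) for every measured gene of chromosomes 7, 8, 15 and 22 in gene order (horizontal, rank); coloured points are called genes and the black line is the running median of 21 genes. The line stays mostly under 0 on chromosome 15 and above 0 on chromosome 22. On chromosome 7, 15 called points lie before TMEM243, the first gene called lower there, and are therefore all higher. From TMEM243 on, 10 are lower and 3 higher.

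The called genes were sorted by where the mean of the sensitive cells, which entered no test, lay. No margin was required, so the counts give the order of means only, and they were not taken over all genes. Some positions rest on small gaps: SIK1 counted as above both at a log2 level of 7.09, against 7.08 in the docetaxel line. Of the 132 higher in the paclitaxel line, the sensitive mean lay between those of the lines but nearer the docetaxel line in 44, and between but nearer the paclitaxel line in 35. It lay above both lines in 20 and below both in 33. Of the 146 lower genes it lay between but nearer the docetaxel line in 26, between but nearer the paclitaxel line in 33, above both in 34 and below both in 53. FSCN1, CLDN4 and CPVL are examples of docetaxel-line values far under the other groups, and PRSS2 of docetaxel-line values far above them. SSX1, TFF1 and TFF2 are examples in which the paclitaxel line stood above both. For ABCB1, WDR3 and USP33 the means ascended from sensitive through paclitaxel to docetaxel cells.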

How the data were processed

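Total RNA (5 µg per array) of 3 passages per line was labelled with biotin and hybridized to 9 Affymetrix human arrays. The deposited table gives 1 intensity on a linear scale per probe set and array. Affymetrix Expression Console 1.1.2 and PLIER, which summarizes probes into probe sets, are named per the submitters' processing notes; how background and differences between arrays were handled was not given in these sources. Arrays have no depth, so their number limits the precision.

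Of 22283 probe sets, 68 controls were left out. Of 22215 human ones, 19065 named 1 gene, 1043 several and 2107 none. The 6 resistant arrays were transformed from deposited intensity to log2(intensity + 16) and quantile-normalized, and each gene was represented by its probe set of highest mean in those 6 arrays (11963 genes; 4310 had several). Platform symbols were updated through the RefSeq gene table (19053 of 19065 probe sets matched), which also gave gene order. limma 3.58.1 (R 4.3.3; lmFit and eBayes, 4 residual and 5.76 prior degrees of freedom) tested paclitaxel minus docetaxel, two-sided, with Benjamini-Hochberg adjustment across the 11963 genes, and called under 0.05. On simulated data of 11963 genes, drawn with 2 seeds, this recovered 5.97% and 11.9% of changes of 0.5 (log2), 67.2% and 68.7% of changes of 1, and 92.4% and 93.9% of changes of 2, with 3 unchanged genes among 113 calls and 1 among 117. The simulation drew the spread of each gene in each array separately, so its arrays had no shared axis of variation. In the 6 real arrays the main axis took 50.9% of the variance within lines. The simulated percentages and counts therefore give no error rate for the real calls. Lists, chromosomes and runs of at least 3 neighbouring genes were described by counts and medians, without a test. RefSeq promoter windows existed for 63 of 82 named genes.

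Named genes were those with the 12 largest positive and 12 largest negative differences, if called, without overlap of arrays and with a higher mean above the median level, up to 3 called members of each list with the smallest adjusted p, the measured genes around ABCB1, 12 genes linked to taxane resistance, and the genes of the 3 longest runs. Any other gene was named in view of its values. The comparison, lists and rules were chosen with earlier results of these data known. Alternatives changed the offset, normalization, filter, choice of probe set, arrays, variance model and replicate block; their effect is given in the closing section. The labels name no batch shared by same-numbered passages, so the replicate number was not used in the main fit.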

Additional observations from a re-analysis of the deposited data

How the results depend on the processing

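The arrays number 3 per line, and low intensities, where noise on the log scale is largest, limit what can be called. The 278 called genes became 46 with an offset of 1 and 419 with an offset of 64, 120 when probe sets named _x_at or _s_at were dropped (8369 genes tested), and 384 of 5982 genes at or above the median level. They were 188 without normalization between arrays (60 higher and 128 lower), 293 with median centring, 254 with the mean of a gene's probe sets, 238 with all 9 arrays in the fit and 417 with a variance trend and robust spread. Leaving out 1 array gave 67 to 180 calls: 98, 67 and 138 without docetaxel passage 1, 2 or 3, and 180, 71 and 81 without paclitaxel passage 1, 2 or 3. Without both arrays that stand apart (an alternative chosen after seeing the data) 198 were called, 147 of the 278 among them. Tested 1 by 1, 358 of 22215 probe sets were called. The 6 chromosome runs became 1 with an offset of 1, 12 at or above the median level, 2 with those probe sets dropped, 3 with all 9 arrays, 3 without both arrays that stand apart, and 1 to 3 without 1 array. With the replicate block 49 genes and 1 run were called. The labels name no batch shared by same-numbered passages, whose deviations correlated at -0.395, 0.0839 and -0.315. These 3 values cannot decide whether such a batch existed. No called gene reversed its sign under an alternative, apart from 7 of 178 without these probe sets, among them GDF15 (0.021), HES1 (-0.16) and FN1 (-0.0091). Genes that were not called and lie near 0 changed sign. Leaving out 1 array gave ranges of -0.34 to 0.26 for RUNDC3B, -0.0040 to 0.49 for DBF4, -0.29 to 0.00098 for ADAM22, -0.15 to 0.025 for STEAP4, -0.13 to 0.079 for ABCC1, -0.066 to 0.11 for TUBB2A, -0.064 to 0.070 for TUBB6, -0.051 to 0.034 for STMN1, -0.051 to 0.15 for BCL2, -0.11 to 0.053 for BCL2L1 and -0.21 to 0.044 for MCL1. Without both arrays that stand apart, ABCC1 was 0.079, TUBB6 0.038 and BCL2 -0.047. With an offset of 64 RUNDC3B was -0.0028, and without normalization TUBB2A was -0.035. With probe set means ABCC1 was 0.10 and BCL2 -0.0093. Without probe sets of the names above ADAM22 was 0.081, SRI -0.080 and MCL1 0.19. The cause of these changes was not tested.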
